A study of Mus musculus with 9 samples.

Results

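Transcripts of the enzymes that write, copy and erase DNA methylation were examined in mouse testis at postnatal day 10. The set comprised 10 genes picked by name from the deposited table: Dnmt1, Dnmt3a, Dnmt3b, Dnmt3l, Trdmt1, Uhrf1, Uhrf2, Tet1, Tet2 and Tet3. They were found as 23 transcript rows, of 29660 in all, and each row carried a single gene name. The table held 23144 genes. The libraries analysed were 3 of C57BL/6 testis labelled Lin28a knockout and 3 of C57BL/6 testis labelled wild type, both at day 10. The titles of the knockout libraries carry the prefix cKO, but no source used here says which cells lost Lin28a. The series also has 3 LIN28A CLIP samples, which were not analysed here. The comparison asks whether the methylation machinery differs in level when Lin28a, an RNA-binding protein of undifferentiated spermatogonia that blocks let-7 maturation, is lost.

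Cytosine methylation in mammals is placed mainly at CpG dinucleotides by DNMT3A and DNMT3B, and is copied to the new strand after replication by DNMT1, which UHRF1 brings to hemimethylated sites. DNMT3L has no catalytic activity and assists the de novo enzymes, chiefly in prospermatogonia before birth and in growing oocytes, while TET1, TET2 and TET3 oxidise 5-methylcytosine as a step in its removal. TRDMT1, also called DNMT2, belongs to the same protein family but methylates tRNA. At this age the testis holds spermatogonia, the first germ cells in meiotic prophase, and somatic cells of the tubule and interstitium.

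The table gives 1 FPKM value per group (fragments scaled for transcript length and library size), in a case column and a control column, and the deposited values carry no spread between libraries and no depth. From the names of the columns alone, case was taken to be knockout and control to be wild type. The targeted gene, Lin28a, stood at 23.4 FPKM in the case column and 8.82 FPKM in the control column, which goes against that reading, so both are called by their column names throughout, and each direction rests on those names. The authors' deposited table gives q = 0.00191 for this 2.66-fold difference. Summed FPKM was 328508 for the case column and 325735 for the control column. Among the 12581 genes whose mean FPKM was 1 or more (rows of a gene summed), 60.8% were higher in the case column, with a median log2(FPKM + 1) difference of 0.03.

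CpG, the sequence these enzymes act on, varies in number between the annotated promoters of these genes, also between those of a single gene. Shown are the start richest in CG of each of the most abundant members, Dnmt1 and Uhrf1, and the first and internal starts of Dnmt3a. The start richest in CG of the least abundant member, Dnmt3l, is shown as well. The sequences are from RefSeq, assembly GRCm38.p6, as windows of 300 bases in the direction of the gene. Each runs from 250 bases before an annotated start to 50 bases after it. Capitals mark each CG. The first sequence is the most downstream annotated start of Dnmt1 (chr9:20952574-20952873, minus strand) and the second is the second annotated start of Uhrf1 (chr17:56304063-56304362, plus strand). The next pair are the first (chr12:3806730-3807029) and the internal start of Dnmt3a (chr12:3891494-3891793), both on the plus strand, and the last is the first start of Dnmt3l (chr10:78042037-78042336, plus strand).
Dnmt1 downstream start: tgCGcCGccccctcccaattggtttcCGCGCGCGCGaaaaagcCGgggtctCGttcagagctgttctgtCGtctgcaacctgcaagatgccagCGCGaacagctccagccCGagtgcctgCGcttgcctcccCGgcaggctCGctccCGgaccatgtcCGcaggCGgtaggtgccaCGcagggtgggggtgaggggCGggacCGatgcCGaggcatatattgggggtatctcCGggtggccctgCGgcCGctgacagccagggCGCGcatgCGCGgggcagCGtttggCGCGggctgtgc
Uhrf1 second start: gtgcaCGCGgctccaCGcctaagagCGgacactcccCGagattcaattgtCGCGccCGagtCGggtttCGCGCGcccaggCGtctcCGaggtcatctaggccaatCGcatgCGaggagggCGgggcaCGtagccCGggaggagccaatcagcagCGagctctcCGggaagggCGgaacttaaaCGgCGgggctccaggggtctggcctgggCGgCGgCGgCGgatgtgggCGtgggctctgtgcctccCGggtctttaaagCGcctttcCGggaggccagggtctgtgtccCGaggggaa
Dnmt3a first start: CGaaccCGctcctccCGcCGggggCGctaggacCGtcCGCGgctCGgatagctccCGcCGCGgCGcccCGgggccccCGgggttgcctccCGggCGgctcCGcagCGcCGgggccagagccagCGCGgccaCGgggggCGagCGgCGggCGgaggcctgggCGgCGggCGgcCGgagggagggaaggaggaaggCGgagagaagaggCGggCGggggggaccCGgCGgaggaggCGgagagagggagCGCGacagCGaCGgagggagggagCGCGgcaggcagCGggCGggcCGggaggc
Dnmt3a internal start: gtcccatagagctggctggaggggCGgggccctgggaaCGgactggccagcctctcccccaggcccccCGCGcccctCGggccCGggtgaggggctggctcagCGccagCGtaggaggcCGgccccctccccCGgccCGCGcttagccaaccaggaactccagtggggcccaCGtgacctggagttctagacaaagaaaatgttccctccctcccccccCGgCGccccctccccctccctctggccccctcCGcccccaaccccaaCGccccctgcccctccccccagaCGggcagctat
Dnmt3l first start: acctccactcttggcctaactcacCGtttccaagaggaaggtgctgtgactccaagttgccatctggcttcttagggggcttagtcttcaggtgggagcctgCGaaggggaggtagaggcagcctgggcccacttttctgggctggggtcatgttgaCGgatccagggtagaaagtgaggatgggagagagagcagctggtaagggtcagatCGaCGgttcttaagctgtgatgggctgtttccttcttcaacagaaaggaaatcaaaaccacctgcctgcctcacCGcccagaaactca

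All 10 genes had entries among the promoter windows, with 17 windows between them. Over all 32807 windows in the RefSeq table the median was 7 CG per window, and 10% of windows held 31 or more. The windows of Dnmt1 and Uhrf1 shown held 33 CG each, while the other starts of Dnmt1 held 2 and 12 and the other start of Uhrf1 held 12. The first start of Dnmt3a held 46 CG and its internal start 18. A second annotated start of Dnmt3a, close to the first and not shown, held 47 CG. The 3 annotated starts of Dnmt3l held 6, 4 and 3 CG, so each lay below the median of all windows, but above the first start of Dnmt1. Tet2 had the most of any member, with 57 CG, and Dnmt1 had the fewest, with 2 CG at its first annotated start. Letters of the binding site of E2F factors, which drive genes of S phase, were searched on both strands as TTTCCCGC, TTTCGCGC, TTTGCCGC and TTTGGCGC, each of which itself holds a CG. They occurred in 2 of the 17 windows, the Dnmt1 and Uhrf1 windows shown, and in 2.26% of all windows. The Uhrf1 match was TTTCGCGC, beginning 185 bases before the start. In the Dnmt1 window TTTCGCGC lay on the opposite strand, and reads GCGCGAAA as printed, beginning 219 bases before the start. TTTGGCGC lay on the strand of the gene and began at base 284 of the window, which is after the start. A match describes the letters in the window, and binding was not measured.

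**Figure D1:**
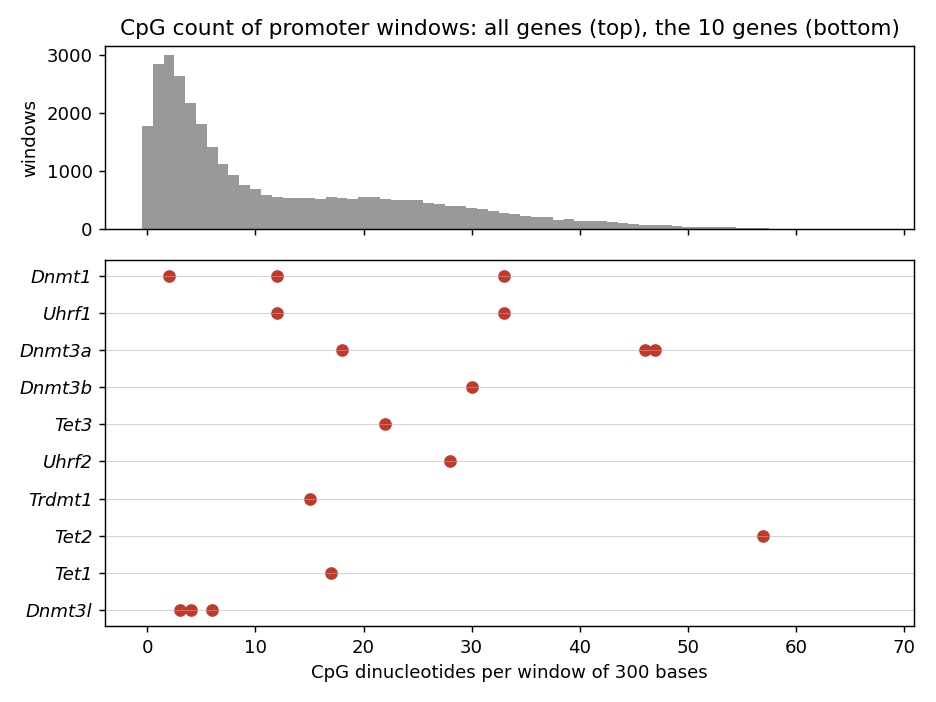
Count of CpG dinucleotides in promoter windows of 300 bases, with the number of windows of all genes in the upper panel and 1 point per annotated start of each of the 10 genes in the lower panel. The 3 starts of Dnmt3l sit at 3 to 6, those of Dnmt1 at 2, 12 and 33, the first start of Dnmt3a at 46 and that of Tet2 at 57, where the median of all windows is 7.

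In both columns the genes stood in the same order of level, which FPKM allows to be compared between genes because it is scaled to length. Dnmt1 and Uhrf1 of the maintenance step came first, then the de novo enzymes Dnmt3a and Dnmt3b, then Tet3, Uhrf2, Trdmt1, Tet2 and Tet1, with Dnmt3l last and below 1 FPKM. Neighbours in this order cannot be tested against each other without values per library. The summed level of the 10 genes was 180.2 FPKM in the case column and 173.4 FPKM in the control column. Summed over rows, 7 of the 10 genes were higher in the case column, beside 60.8% of all genes, and 3 were lower (Uhrf1, Trdmt1 and Dnmt3l), beside 39.2%. Row by row, 11 of the 16 member rows at a mean FPKM of 1 or more were higher, beside 59.1% of all such rows. With the columns rescaled by their median ratio, or quantile normalized, 5 of the 10 were higher, since Dnmt1 and Dnmt3b turned to slightly lower, and the share of all genes that were higher became 50.0% and 52.2%. The median log2(FPKM + 1) difference of the 10 was 0.05, against 0.03 over all genes.

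**Figure D2:**
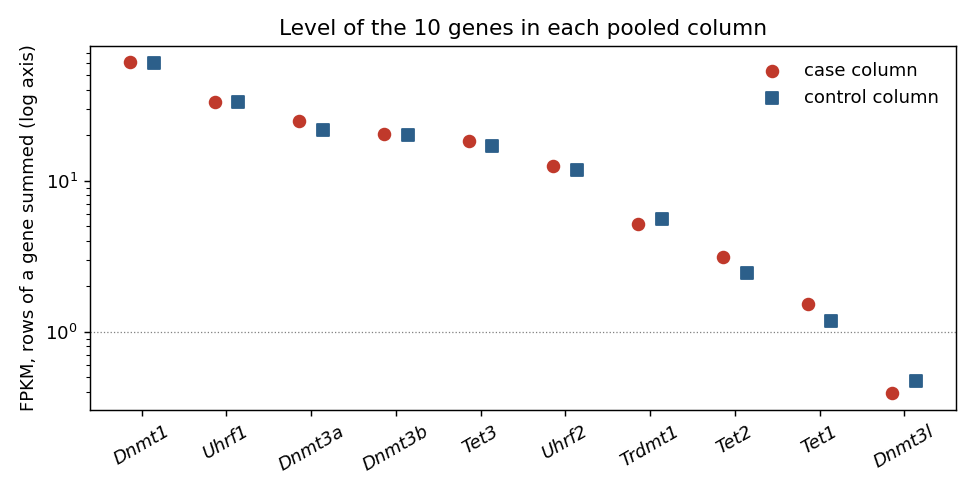
FPKM (rows of a gene summed, log axis) of the 10 genes, ordered by level, with red circles for the case column and blue squares for the control column, 1 pooled value each; the dotted line marks 1 FPKM. The order runs from Dnmt1 at 60.7 and 59.9 FPKM down to Dnmt3l at 0.392 and 0.473 FPKM and is the same in both columns.

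No member passed the test. Of the 23 rows, 7 have a p-value in the authors' deposited table, and 0 of these had q under 0.05, where 0.0514% of the tested rows did. At an unadjusted p under 0.05 there were also 0, where 1.28% of the tested rows passed. All 7 had q = 0.999966 in the authors' deposited table. Another 13 rows, all those of Dnmt1, Dnmt3b and Uhrf1, have the status FAIL, which means values but no usable p-value, and 3 rows of Dnmt3l and Tet1 were listed as not tested. FAIL was given to 25.8% of all rows of genes with more than 1 row and to 0.985% of rows of genes with 1 row.

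Dnmt1 and Uhrf1, which act together in maintenance, were the most abundant transcripts of the set and were nearly equal between the columns. Dnmt1 (mm10 chromosome 9, 20907206 to 20959888) was at 60.7 FPKM in the case column and 59.9 FPKM in the control column, above 91.8% of genes at a mean FPKM of 1 or more. Uhrf1 (chromosome 17, 56303337 to 56323486), whose protein reads hemimethylated CpG and recruits DNMT1, was at 33.1 FPKM in the case column and 33.2 FPKM in the control column. These are differences of 0.02 and -0.002 on the log2(FPKM + 1) scale. The ratio of Dnmt1 to Uhrf1 was 1.83 in the case column and 1.80 in the control column. Uhrf2 (chromosome 19, 30030513 to 30093724), a paralog of Uhrf1 that does not replace it in maintenance, was at 12.5 FPKM in the case column and 11.9 FPKM in the control column. Its p was 0.779 in the authors' deposited table.

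Within Dnmt1 and Uhrf1 the single rows differed more than the sums. Dnmt1 was made up almost wholly of NM_010066 and NM_001199431. The first was at 31.6 FPKM in the case column and 32.9 FPKM in the control column, and the second at 28.2 FPKM in the case column and 26.0 FPKM in the control column. So the direction was opposite between them. NM_001199433 was at 0.914 FPKM in the case column and 1.05 FPKM in the control column, and NM_001199432 was listed at 0 in both. The leading row of Uhrf1, NM_001111078, was at 16.5 FPKM in the case column and 18.9 FPKM in the control column, which is 49.8% and 56.9% of the gene's summed FPKM. The other 3 rows of Uhrf1 were higher in the case column, and the sum of the gene was nearly equal. The largest ratio of any member row was that of NM_001111079, 1.53-fold, at 2.60 FPKM in the case column and 1.70 FPKM in the control column. All these rows have the status FAIL and share most of their sequence, so how the reads were split among them is uncertain.

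The de novo enzymes followed, with Dnmt3a higher in the case column in both of its rows and Dnmt3b nearly equal. Summed over rows, Dnmt3a (chromosome 12, 3806980 to 3914443) was at 24.9 FPKM in the case column and 21.6 FPKM in the control column, a 1.15-fold difference. Of all genes, 18.8% had a larger difference on the log2(FPKM + 1) scale in either direction. NM_007872, the long form, was at 20.8 FPKM in the case column and 18.1 FPKM in the control column, with p = 0.416 in the authors' deposited table. NM_153743, the short form DNMT3A2 that is known from germ cells and embryonic stem cells and is made from the internal promoter, was at 4.11 FPKM in the case column and 3.54 FPKM in the control column. Its p was 0.588 in the authors' deposited table. The short form made up 16.5% of the gene's summed FPKM in the case column and 16.4% in the control column, so the balance of the 2 forms was nearly the same in both.

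Dnmt3b (chromosome 2, 153649454 to 153687730) was at 20.4 FPKM in the case column and 20.2 FPKM in the control column, summed over 5 rows. Of these rows, NM_001122997 was at 8.52 FPKM in the case column and 8.84 FPKM in the control column. NM_001003960 was at 7.35 FPKM in the case column and 6.07 FPKM in the control column. NM_010068 was at 4.49 FPKM in the case column and 5.29 FPKM in the control column, and NM_001003961 and NM_001003963 were listed at 0 in both. The rows again lay on both sides, all with the status FAIL. Dnmt3c is a rodent duplicate of Dnmt3b that methylates young retrotransposons in male germ cells. It was looked up, and no row was found under its name. How reads shared by these close copies were counted is not known, so the Dnmt3b level is uncertain. The summed de novo enzymes stood at 74.6% of the Dnmt1 level in the case column and 69.8% in the control column.

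**Figure D3:**
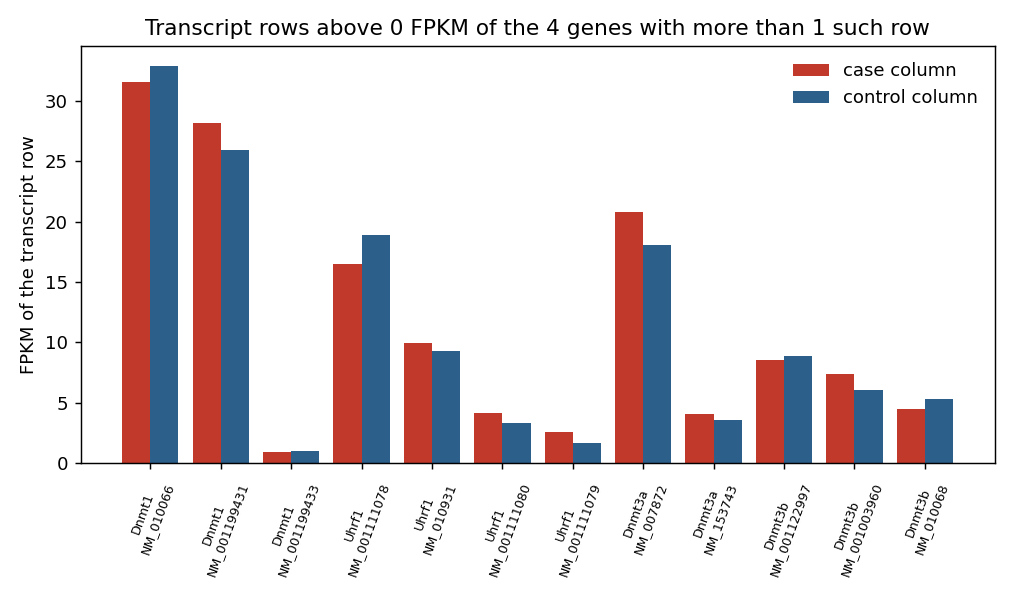
FPKM of each transcript row above 0 for Dnmt1, Uhrf1, Dnmt3a and Dnmt3b, with red bars for the case column and blue bars for the control column, 1 pooled value each. Both Dnmt3a rows are higher in the case column, while the rows of the other 3 genes lie on both sides.

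Dnmt3l (chromosome 10, 78030031 to 78063615), the cofactor of the de novo enzymes, was almost undetected. NM_019448 was at 0.392 FPKM in the case column and 0.473 FPKM in the control column, and NM_001081695 was listed at 0 in both. Neither row was tested by the authors. Dnmt3a and Dnmt3b together were at 115 times the Dnmt3l level in the case column and 88.3 times in the control column. Trdmt1 (chromosome 2, 13510161 to 13544664), the tRNA methyltransferase of the family, was at 5.19 FPKM in the case column and 5.60 FPKM in the control column, with p = 0.781 in the authors' deposited table. Of 10 other tRNA and rRNA methylation genes, all at a mean FPKM of 1 or more, 4 were higher in the case column and 6 were lower (3 and 7 under either rescaling). Their median difference was -0.01 on the log2(FPKM + 1) scale and 0 of the 9 with a p-value passed an unadjusted 0.05. Trmt1, which methylates guanosine in tRNA, was at 23.9 FPKM in the case column and 21.0 FPKM in the control column. Nsun6, a tRNA cytosine methyltransferase, was at 5.20 FPKM in the case column against 5.81 FPKM in the control column, and Trmt6, of the tRNA adenosine methyltransferase, was at 27.3 FPKM in the case column against 28.6 FPKM in the control column.

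The TET genes were all higher in the case column under each scaling run, and none passed the test. Tet3 (chromosome 6, 83362374 to 83441678), known for oxidising the paternal genome in the zygote, was at 18.3 FPKM in the case column and 16.9 FPKM in the control column, with p = 0.626 in the authors' deposited table. Tet2 (chromosome 3, 133463677 to 133544390), which lacks the CpG-binding CXXC domain of its relatives, was at 3.14 FPKM in the case column and 2.45 FPKM in the control column, with p = 0.270, the smallest of any member in the authors' deposited table. Tet1 (chromosome 10, 62804570 to 62880014), known from primordial germ cells and embryonic stem cells, was at 1.52 FPKM in the case column and 1.17 FPKM in the control column in NM_001253857, with p = 0.287 in the authors' deposited table. Its row NM_027384 was listed at 0 in both. Tet1 and Tet2 were the 2 members at least 1.2-fold higher in the case column, as were 9.6% of all genes, and Dnmt3l, below 1 FPKM, was the only member lower by that ratio. In either direction 15.6% of all genes differed that much. Tet3 made up 79.7% of the summed TET level in the case column and 82.3% in the control column.

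The deposited test statistic has a p-value equal to that of a normal deviate, to within 2.77e-06, in all 13586 tested rows above 0 in both columns. Read as the log2 ratio over its standard error, which no source states, it gives a 95% interval for each tested member. For Tet2 the ratio of case to control was 1.28-fold with an interval of 0.825-fold to 1.99-fold, and for Tet1 1.30-fold with 0.804-fold to 2.09-fold. The interval of the long Dnmt3a row was 0.821-fold to 1.61-fold and that of its short row 0.674-fold to 2.01-fold. For Tet3 it was 0.781-fold to 1.51-fold, for Uhrf2 0.718-fold to 1.56-fold and for Trdmt1 0.543-fold to 1.58-fold. Each interval includes 1, and each also includes a ratio of 1.5-fold in favour of the case column.

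**Figure D4:**
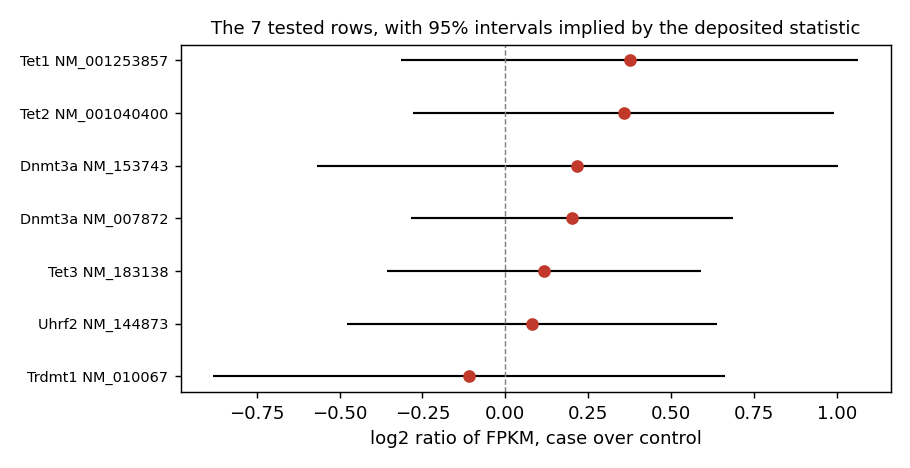
Log2 ratio of FPKM, case over control, for the 7 member rows with a deposited p-value, as points with horizontal bars for the 95% interval implied by the deposited statistic. All 7 intervals cross 0, from Trdmt1 at -0.11 to Tet1 at 0.37.

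Genes that act beside these enzymes were described from lists, and none of their members passed q under 0.05 in the authors' deposited table. In 8 lists with 92 genes in the table, counting each gene once, 87 were at a mean FPKM of 1 or more. Of these, 55.2% (48 genes) were higher in the case column, beside 60.8% of all genes at that level. The share of all genes was 50.0% with the columns rescaled by their median ratio and 52.2% with quantile normalization. Of the 78 list genes with a p-value, 0 were higher and 3 lower at an unadjusted p under 0.05. In either direction 1.28% of all tested rows passed that threshold. These lists were chosen with earlier results of these data known, so such shares are descriptions and not tests. A list of methyl-CpG readers and their relatives, among them Mbd3, Mbd5 and Mbd6, had all 10 genes higher in the case column. Their median log2(FPKM + 1) difference was 0.07. With the columns rescaled by their median ratio 8 were higher, and with quantile normalization 9. Mbd2, a subunit of a NuRD complex, was at 29.6 FPKM in the case column against 27.0 FPKM in the control column, and Mbd4, a thymine glycosylase, was at 4.49 FPKM in the case column against 4.05 FPKM in the control column.

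Partners of maintenance methylation had a median difference of 0.05, with 7 of 11 higher (6 under either rescaling). Zfp57, which keeps methylation at imprinted regions, was at 3.64 FPKM in the case column and 2.79 FPKM in the control column. Cdca7l was at 26.6 FPKM in the case column against 21.9 FPKM in the control column, and Pcna, the replication clamp, was at 45.6 FPKM in the case column against 50.9 FPKM in the control column. Of the partners and cofactor suppliers of TET enzymes 6 of 9 were higher, with a median difference of 0.12 (6 under either rescaling). Ogt, the glycosyltransferase that binds TET proteins, was at 54.9 FPKM in the case column and 44.2 FPKM in the control column, with p = 0.200 in the authors' deposited table. Cxxc5, a CpG-binding relative of the TET proteins, was at 40.9 FPKM in the case column against 33.5 FPKM in the control column, and Cxxc4, of the same kind, was at 1.68 FPKM in the case column against 1.21 FPKM in the control column.

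A list of base excision genes, which complete the removal of oxidised or deaminated bases, also held Gadd45a, Gadd45b, Gadd45g and the deaminase Apobec1. It had 8 of 14 higher and a median difference of 0.01 (6 of 14 and a negative median under either rescaling). Smug1, a uracil glycosylase, was at 4.56 FPKM in the case column and 3.59 FPKM in the control column. Ung, another uracil glycosylase, was at 31.1 FPKM in the case column against 25.8 FPKM in the control column, and Apobec1, a cytidine deaminase, was at 2.35 FPKM in the case column against 3.01 FPKM in the control column. In the cycle that supplies the methyl donor S-adenosylmethionine 9 of 10 were higher, with a median difference of 0.06 (8 with the median ratio, 9 with quantile normalization). Ahcy, which removes the inhibitory product of methylation, was at 29.9 FPKM in the case column and 24.1 FPKM in the control column. Mat2b, a regulatory subunit of the synthetase, was at 63.8 FPKM in the case column against 59.3 FPKM in the control column, and Mthfd1, of the folate path, was at 15.6 FPKM in the case column against 14.6 FPKM in the control column.

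The machinery that guides methylation to retrotransposons through piRNAs had 3 of 11 higher and 8 lower, with a median difference of -0.02 (2 higher under either rescaling). Mov10l1, the helicase of piRNA biogenesis, was at 35.0 FPKM in the case column and 41.9 FPKM in the control column. Tex15, needed for retrotransposon methylation, was at 33.6 FPKM in the case column against 38.9 FPKM in the control column, and Morc1, which acts in the same silencing, was at 13.5 FPKM in the case column against 11.9 FPKM in the control column. Germline genes whose promoters are methylated in somatic cells had 14 of 15 lower under each scaling, with a median difference of -0.21. The 3 with an unadjusted p under 0.05 in the authors' deposited table were Tex101, Hormad1 and Sycp1. Tex101, a germ cell surface protein, had 87.0 FPKM in the case column against 165 FPKM in the control column (p = 1.95e-04 in the authors' deposited table). Hormad1, of meiotic chromosome axes, had 15.6 FPKM in the case column against 29.8 FPKM in the control column (p = 0.00339), and Sycp1, of the synaptonemal complex, had 38.5 FPKM in the case column against 59.1 FPKM in the control column (p = 0.0102 in the authors' deposited table). All 3 were thus lower in the case column. They and Sycp3 are the 4 genes that the list of meiotic prophase markers also holds. Without those 4, 10 of the remaining 11 were lower and the median was -0.16. The germline list also shares 3 genes with the piRNA list, Mael, Asz1 and Mov10l1, so the counts of these lists overlap.

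**Figure D5:**
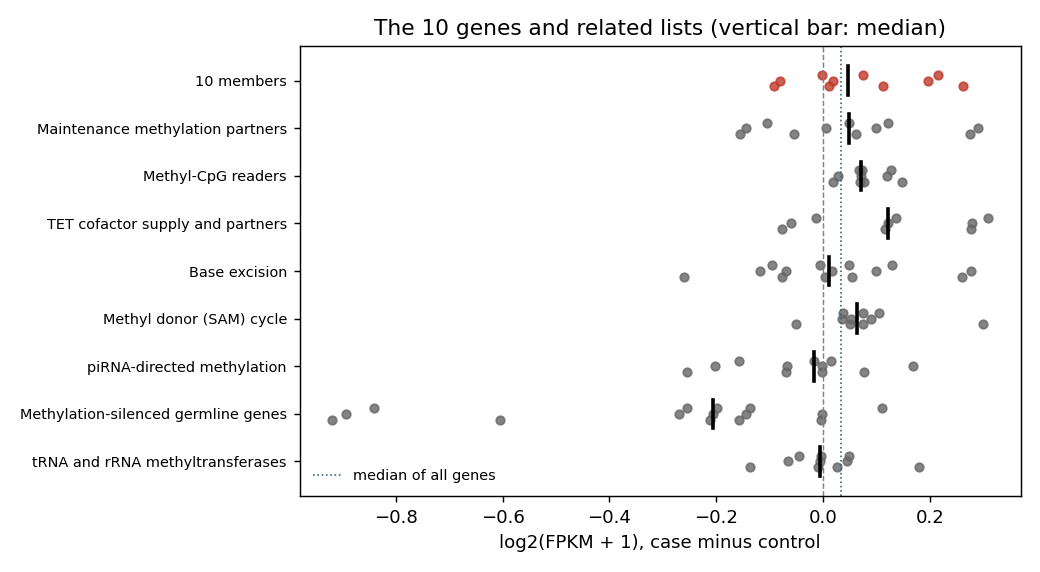
Difference of log2(FPKM + 1), case minus control, for the 10 genes (red) and for 8 lists of related genes at a mean FPKM of 1 or more (grey), 1 point per gene, with a black bar at each median and a dotted line at the median of all genes. The 10 genes lie between -0.09 and 0.26, and the germline list reaches -0.92.

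Marker genes of the cell types in the testis differed between the columns as well, none of them but Lin28a with q under 0.05 in the authors' deposited table. All 15 meiotic prophase markers were lower in the case column, with a median log2(FPKM + 1) difference of -0.67 and a summed level of 446 FPKM in the case column and 688 FPKM in the control column. Of the 14 with a p-value, 7 were under an unadjusted 0.05, beside the same 1.28% of all tested rows. The marker lists too were chosen with earlier results of these data known, so this share is a description and not a test. Of 8 markers of differentiating spermatogonia 7 were lower, at a sum of 233 FPKM in the case column and 271 FPKM in the control column. Of all genes at a mean FPKM of 1 or more, 60.8% were higher in the case column and 39.2% lower. The marker counts were not repeated with the columns rescaled. Among the markers at that level, all 8 Leydig, all 10 peritubular and stromal and all 8 endothelial genes were higher in the case column. Their sums were 386 FPKM in the case column and 305 FPKM in the control column for Leydig markers, 762 FPKM in the case column and 647 FPKM in the control column for peritubular and stromal markers, and 55.4 FPKM in the case column and 46.0 FPKM in the control column for endothelial markers. The 8 macrophage markers past that level were all lower. Ptprc, a macrophage marker below it, was at 0.470 FPKM in the case column and 0.406 FPKM in the control column. All 9 summed to 86.2 FPKM in the case column and 107 FPKM in the control column. Sertoli markers had 5 of 11 higher, at a sum of 2197 FPKM in the case column and 2029 FPKM in the control column. Without Cst9, left out after its values were seen because its own difference exceeds that gap, the sum was 1601 FPKM in the case column and 1613 FPKM in the control column. Of the undifferentiated spermatogonia markers at a mean FPKM of 1 or more 7 of 10 were higher. Below that level, Nanos2 was at 0.540 FPKM in the case column and 1.09 FPKM in the control column. Eomes, also below it, was at 0.339 FPKM in the case column and 0.273 FPKM in the control column. All 12 summed to 92.8 FPKM in the case column and 77.3 FPKM in the control column. Without Lin28a itself the sum was 69.3 FPKM in the case column and 68.5 FPKM in the control column, so nearly all of the gap was the targeted gene. Genes of S phase and mitosis, the stage at which Dnmt1 and Uhrf1 are most expressed, had 7 of 12 higher and a median difference of 0.002, with sums of 527 FPKM in the case column and 539 FPKM in the control column. No marker was at 0 in both columns. In bulk tissue, fewer cells of a type and less RNA per cell cannot be told apart, and the part of cell makeup in the values of the 10 genes was not tested.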

How the data were processed

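Testis RNA at day 10 was sequenced as 3 libraries with the label Lin28a knockout and 3 with the label wild type, which are not stated to come from separate animals. The submitters' processing notes name TopHat2 2.0.9 and mm10. For each group the authors deposited 1 FPKM value, per the file headers. The authors also deposited a p-value and a q-value of their own test, its statistic, a log2 ratio and a status, for each of 29660 distinct RefSeq accessions. The program and the way replicates entered the test are not given in the sources used here, and the depth is unknown. The deposited log2 ratio is control over case while the sign of the deposited statistic score is that of case over control, in all 13586 tested rows above 0 in both columns, so signs were set from the FPKM values.

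Members were the rows whose gene name equals a member in any letter case. Symbols came by accession from a RefSeq table of assembly GRCm38.p6 for 29071 accessions (98.0%). FPKM was summed over the rows of a gene, and differences are of log2(FPKM + 1), which understates the change of low genes. Starts were read as counting from 0, and 1 was added. For a gene with several rows the position is the region the table gives to all of them, and that of Dnmt3l begins before the RefSeq gene. The region of Tet1, on the minus strand, ends at 62880014. It does not reach the RefSeq start at 62887324 that its promoter window uses. No test over libraries could be made, so calls are the authors' q under 0.05. List members were counted by the p-value of the row at the highest level. The named members of each related list were those with p under 0.05 or, failing that, the 3 with the largest difference at a mean FPKM of 1 or more. The values of 1 gene under this rule are not reported here. The members and lists were chosen with earlier results of these data known. Calculations used Python 3.11.15, pandas 2.3.3, numpy 2.4.6 and scipy 1.17.1, and were tested on simulated data. Promoter windows were those of the RefSeq table with 300 unambiguous bases.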

Additional observations from a re-analysis of the deposited data

How the results depend on the processing

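The 7 of 10 genes higher in the case column became 5 of 10 when the columns were rescaled by the median of ratios (a factor of 1.03), with quantile normalization and with the row of highest FPKM in place of the sum. It was 7 of 10 with a pseudocount of 0.1, 5 of the 7 genes left without FAIL rows and 5 of the 7 at a mean FPKM of at least 5. The median difference of 0.05 lay between 0.01 and 0.11 under these 6 alternatives. Of 47 gene differences under alternatives, 3 moved by over 0.1: Dnmt3l (-0.22) and Tet1 (0.35) with a pseudocount of 0.1, and Uhrf1 (-0.19) by its highest row. A further 6 changed sign, all of Dnmt1 and Dnmt3b. The count of 0 called rows was also 0 at q under 0.10, at an unadjusted p under 0.05 and adjusted again over tested rows at a mean FPKM of 1 or more. Of 33 list medians under alternatives, 0 moved by over 0.1; for the lists, rescaling and the removal of meiotic genes were chosen after seeing the data. No paired analysis was possible because only pooled values per group exist in the table, and for the same reason leaving out a library was not run. Depth is unknown and sets no interval.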
